A study of Mus musculus with 24 samples.

Results

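The 10 genes followed here serve intracellular calcium release and store refilling, and their levels were measured across epileptogenesis in the mouse hippocampus. They were chosen by name, with earlier results of these data known: the ryanodine receptors *Ryr1*, *Ryr2* and *Ryr3*, the IP3 receptors *Itpr1*, *Itpr2* and *Itpr3*, the pump gene *Atp2a2* (SERCA2), the store sensors *Stim1* and *Stim2*, and the entry channel gene *Orai2*. All 10 were found among the 55385 gene identifiers of the count data, and all 10 had enough counts to be tested in every comparison. Bulk RNA of the hippocampus was sequenced from 24 mice, 4 in each of 6 groups. All mice were homozygous for the floxed *Tsc1* allele (Tsc1f/f), 16 to 22 weeks old, of both sexes, and all received 4 tamoxifen injections. Controls (*Tsc1-Cre-*) lacked the Camk2a-CreERT2 transgene and were taken on day 8, counted from the first tamoxifen injection. *Tsc1-Cre+* mice carried the transgene and were taken on day 4, 6, 8 or 13. A last group of *Tsc1-Cre+* mice received 10 mg/kg rapamycin, an mTOR inhibitor, daily from day 4 and was taken on day 13. The transgene acts in CAMK2A-expressing neurons, so that other cells of the tissue keep *Tsc1*, and only the day 8 mice were taken on the same day as the controls. In whole tissue, fewer cells of a type and less RNA per cell cannot be told apart.

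The endoplasmic reticulum is the main calcium store of a neuron. Ryanodine receptors open on calcium itself, and IP3 receptors open on IP3, the second messenger that phospholipase C makes below Gq-coupled receptors such as the group I metabotropic glutamate receptors. Both let calcium out of the store into the cytosol. SERCA pumps carry it back at the cost of ATP. When the store runs low, STIM proteins in its membrane sense the loss and open ORAI channels in the plasma membrane, through which the store is refilled. *Ryr2* is the main ryanodine receptor of the brain and heart, *Ryr1* that of skeletal muscle, and *Itpr1* the main IP3 receptor of neurons.

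Positions are those of GENCODE M21 on build GRCm38. *Ryr1* occupies chr7:29003344-29125179, *Ryr2* chr13:11553102-12106945 and *Ryr3* chr2:112631355-113217096, all on the minus strand. *Itpr1* lies at chr6:108213096-108551109 and *Itpr3* at chr17:27057304-27122223 on the plus strand, and *Itpr2* at chr6:146108299-146502223 on the minus strand. *Atp2a2* lies at chr5:122453513-122502225 and *Orai2* at chr5:136147459-136170713 on the minus strand, *Stim1* at chr7:102267806-102437319 and *Stim2* at chr5:53998499-54121057 on the plus strand. *Aven*, on the opposite strand of *Ryr3*, had a mean of 535 counts per mouse against 20849 for *Ryr3*. The strand setting of the counting is not given in the sources used here, and the genes that overlap the other members had at most 1873 counts, for a transcript inside *Ryr2*, which itself had 64373.

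RefSeq promoter windows of GRCm38.p6, from 250 bases before to 50 bases after the start, were matched for 7 of the 10 genes, all but *Ryr3*, *Itpr1* and *Atp2a2*. Those of *Ryr1*, *Ryr2* and *Orai2* are printed because the first pair fell and the last rose on day 13. Capitals mark the GC box (GGGCGG), the E-box (CACGTG) and the core of the cAMP response element (TGACG), each searched on both strands. The windows are chr7:29125102-29125401 for *Ryr1*, chr13:12106896-12107195 for *Ryr2* and chr5:136170607-136170906 for *Orai2*, all on the minus strand and written 5′ to 3′ along the gene.
Ryr1: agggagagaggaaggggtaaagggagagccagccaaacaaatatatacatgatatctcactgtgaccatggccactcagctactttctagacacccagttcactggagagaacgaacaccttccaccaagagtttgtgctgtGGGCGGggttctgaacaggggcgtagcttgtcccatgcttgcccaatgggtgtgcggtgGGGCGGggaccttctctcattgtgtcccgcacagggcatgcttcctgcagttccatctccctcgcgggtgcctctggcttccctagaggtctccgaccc
Ryr2: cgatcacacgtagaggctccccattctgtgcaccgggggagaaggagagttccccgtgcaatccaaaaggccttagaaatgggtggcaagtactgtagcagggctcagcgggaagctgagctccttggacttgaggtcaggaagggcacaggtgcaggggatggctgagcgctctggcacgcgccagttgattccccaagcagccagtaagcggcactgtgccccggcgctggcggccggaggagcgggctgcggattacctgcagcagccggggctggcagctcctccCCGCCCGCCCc
Orai2: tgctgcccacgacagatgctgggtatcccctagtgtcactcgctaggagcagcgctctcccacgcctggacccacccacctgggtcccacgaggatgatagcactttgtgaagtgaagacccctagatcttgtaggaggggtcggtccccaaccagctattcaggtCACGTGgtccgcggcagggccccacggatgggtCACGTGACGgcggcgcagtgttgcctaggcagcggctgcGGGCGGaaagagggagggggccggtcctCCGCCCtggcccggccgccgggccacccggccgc

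The *Orai2* window held 2 E-boxes, at positions 167 and 200 from its 5′ end, and the second shared bases with the TGACG core at position 204. Neither motif was found in the windows of *Ryr1* and *Ryr2*, which held 2 GC boxes each. Of all 32851 promoter windows, 7.15% held an E-box, 20.8% the TGACG core and 35.7% a GC box. Among the other matched members, *Itpr3* had 1 E-box and *Stim1* 1 TGACG core, and all 7 members had at least 1 GC box, with 8 in *Stim1*. The full cAMP response element (TGACGTCA, 1.79% of all windows) and the core of the C/EBP-ATF response element (TGATGNAA, 3.97%) were found in none of the 7. GC content was 56.7% for *Ryr1*, 65.3% for *Ryr2* and 68.0% for *Orai2*, against a median of 52.7% over all windows.

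The libraries held between 28208561 and 126435936 counts (median 55582027). Day 13 mice A and B were the deepest of their group. *Tsc1*, the targeted gene, fell from 105 ± 3.21 CPM (read counts scaled by library size, mean ± SD, n = 4) in controls to 63.6 ± 6.19 on day 13 and was 67.3 ± 1.43 under rapamycin. Neuronal and glial markers were detected in every group, none of the markers was at 0, and the summed level of 5 choroid plexus markers ranged from 38.9 to 1675 CPM between mice. The names of the deposited counts carry a number for each mouse, which the labels do not explain. It was read here as an animal number. Controls and day 8 mice share such number series, whereas each other group has series of its own, and no group comes from a single series. Outside day 8 the time point or treatment therefore cannot be told apart from the series.

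In the control hippocampus the members spanned a wide range of levels. Counts were scaled to CPM and divided by exon length, so that genes can be compared per kilobase (kb). *Atp2a2* stood highest with 138 ± 3.84 CPM per kb (SD, n = 4), followed by *Itpr1* with 57.1 ± 6.35 and *Ryr2* with 41.7 ± 2.26. The next 3 genes, *Stim2* (25.5 ± 2.17), *Orai2* (25.4 ± 1.73) and *Ryr3* (22.1 ± 2.37), overlapped between mice and could not be ordered. *Stim1* was at 6.47 ± 0.254, *Itpr2* at 4.72 ± 0.179, *Ryr1* at 1.93 ± 0.050 and *Itpr3* at 0.962 ± 0.0649 CPM per kb. Apart from that middle group, neighbours in this order did not overlap in any mouse. Within the 3 ryanodine receptors *Ryr2* made up 63.5% ± 1.47 of the summed level per kb and *Ryr3* 33.6% ± 1.6, and among IP3 receptors *Itpr1* made up 90.9% ± 0.754.

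**Figure D1:**
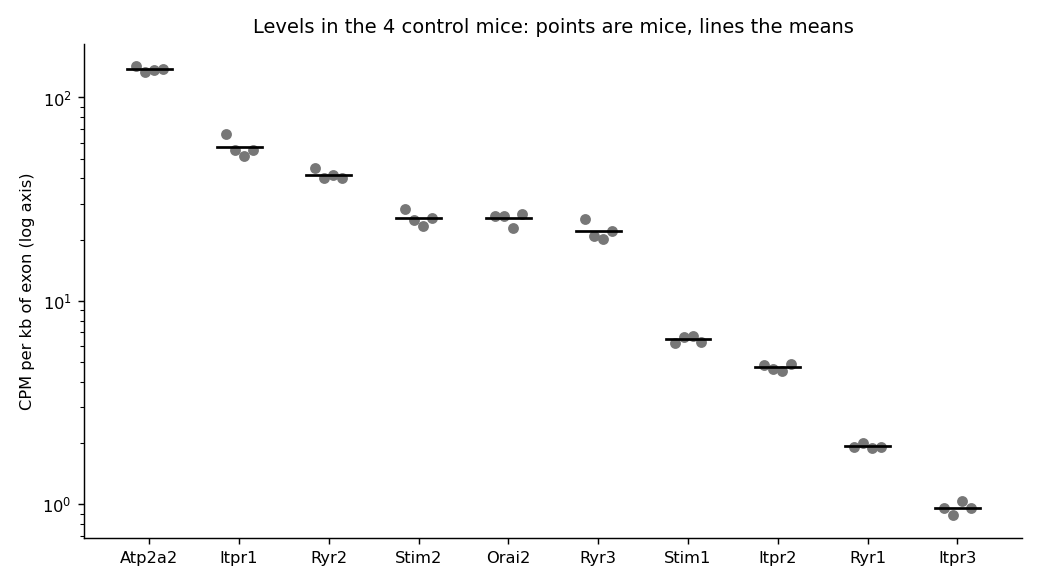
Level of each gene in the 4 control mice, in CPM per kb of exon on a log axis, with mice as points and means as lines. *Atp2a2* (138) leads, *Stim2*, *Orai2* and *Ryr3* share the range from 20.1 to 28.5, and *Itpr3* (0.962) is lowest.

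Each group was compared with the controls by edgeR's quasi-likelihood test, fitted on all genes of the 8 mice, with Benjamini-Hochberg adjustment over all genes tested. On day 4, 1 of 10 members passed an adjusted p of 0.05 (*Itpr2*, lower), as did 4.16% of all genes (1.56% lower), and 1 member did not overlap between groups, against 11.7% of all genes. By day 6, 4 members had passed, 1 higher and 3 lower (10.1% of all genes, 6.24% higher and 3.81% lower), and 5 did not overlap (16.0%). On day 8, 5 passed, 2 higher and 3 lower (13.3% of all genes, 8.41% higher and 4.87% lower), and 6 did not overlap (20.4%). Day 13 had the most: 7 passed, 2 higher and 5 lower (26.9% of all genes, 15.6% higher and 11.3% lower), and 7 did not overlap (30.8%). Over the 10 members the median log2 fold change was -0.045 on day 4 (-0.0047 over all genes) and -0.049 on day 6 (-0.018). It was -0.14 on day 8 (-0.025) and -0.28 on day 13 (-0.040). All 4 comparisons share the 4 control mice.

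With a minimum absolute log2 fold change of 0.5 added, edgeR called 1 member on day 8 (*Itpr1*) and 3 on day 13 (*Ryr1*, *Ryr3* and *Itpr1*), all lower. Of all genes 3.99% were called on day 8 (1.84% lower) and 16.5% on day 13 (8.06% lower). It called 0 members on day 4 and 0 on day 6 (0.68% and 1.32% of all genes), where 4 and 5 members had an unadjusted p under 0.05, and DESeq2 called 0 as well. In the rapamycin mice 2 members passed against control, 1 higher and 1 lower (3.57% of all genes, 1.26% higher and 2.31% lower), 2 did not overlap (11.9%), and 0 were called past the fold minimum by edgeR or DESeq2 (1.41% of all genes), with 2 at an unadjusted p under 0.05. Between rapamycin and untreated day 13 mice 5 members passed, 4 higher and 1 lower under rapamycin (30.8% of all genes, 13.1% higher and 17.7% lower), 5 did not overlap (32.7%) and 3 were called (21.1%). Across all 6 groups at once, 8 members passed the F test of edgeR at an adjusted p of 0.05, as did 41.9% of all genes, and *Itpr2* (adjusted p = 0.215) and *Stim2* (adjusted p = 0.329) did not.

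**Figure D2:**
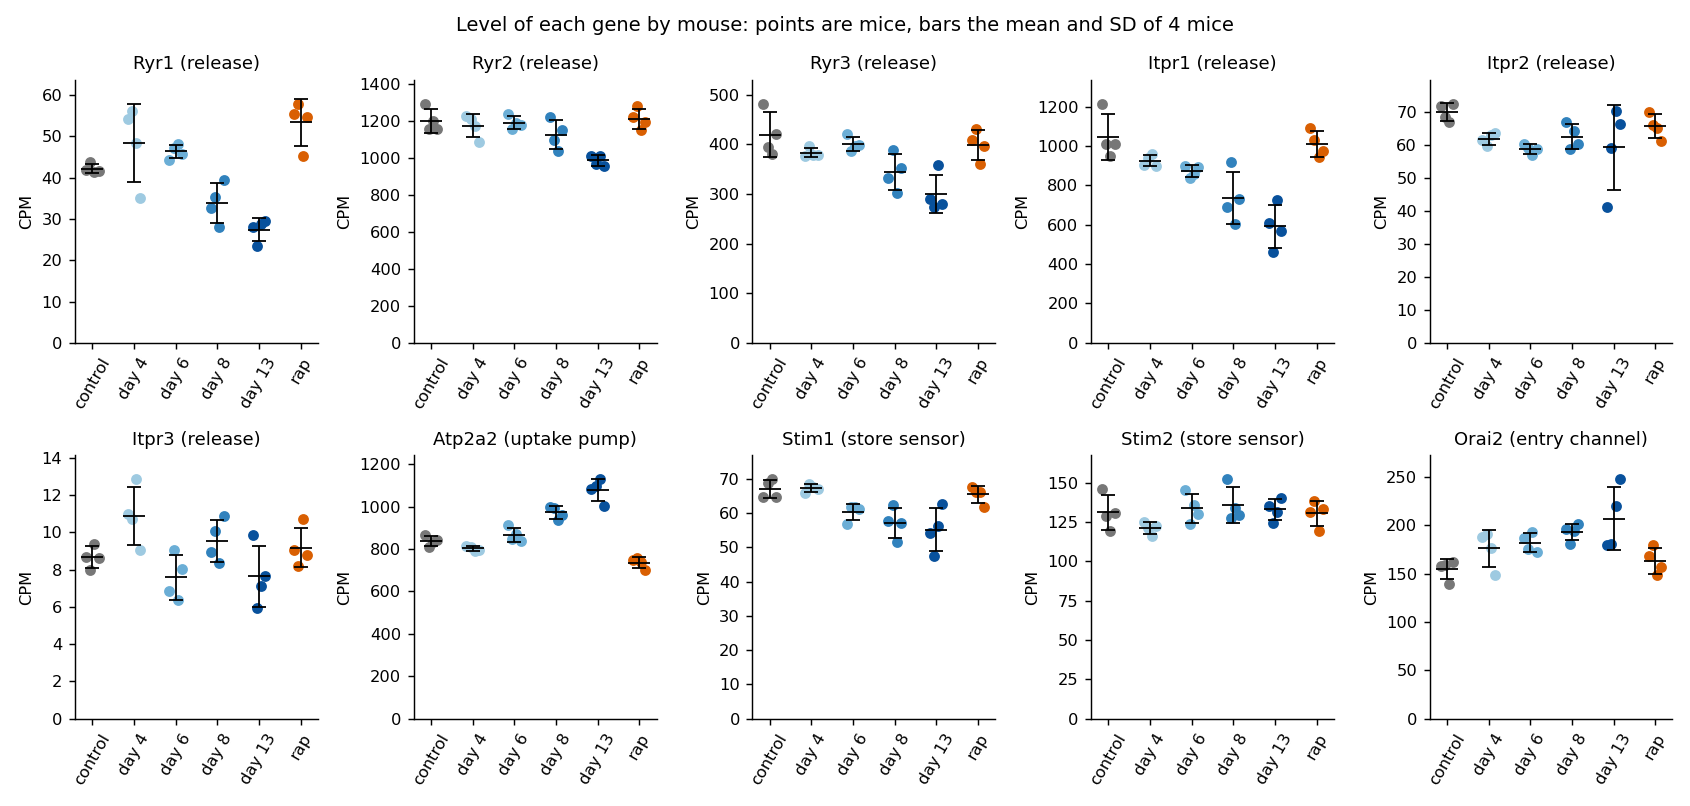
CPM of each of the 10 genes in each of the 24 mice, by group, with the mean and SD of 4 mice as bars and a y axis from 0 (rap, rapamycin). *Itpr1*, *Ryr1*, *Ryr2* and *Ryr3* are lowest on day 13 and *Atp2a2* and *Orai2* highest, and the 4 rapamycin mice of *Atp2a2* (699 to 757) lie below all controls.

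*Itpr1*, the IP3 receptor that dominates in neurons, showed the largest fold change against control of the 10 members on day 13. The 4 controls, mice A to D, had 1215, 1010.3, 949 and 1009.9 CPM. The day 4 mice had 904, 937, 959 and 900 CPM and the day 6 mice 900.4, 839.7, 856 and 895 CPM. The day 4 mice overlapped with the controls, with a log2 difference of -0.18 ± 0.067 (SE, adjusted p = 0.172). It passed in 1 of 15 alternatives, the *Xist* covariate (-0.26, adjusted p = 0.0434). All day 6 mice were below all controls, and the log2 fold change on day 6 was -0.27 ± 0.067 (SE, adjusted p = 0.0197). On day 8 the mice had 692, 918, 603 and 731 CPM, and on day 13 they had 611, 463, 724 and 567 CPM. The day 8 and day 13 ranges overlapped with each other but neither overlapped with the controls. The log2 fold change was -0.52 ± 0.12 on day 8 (adjusted p = 0.0173) and -0.84 ± 0.14 on day 13 (adjusted p = 0.00311), where the mean was 56.5% of that of the controls. The day 13 value kept its call in all 16 alternative fits, between -0.93 and -0.70. The day 8 call was lost without control A (-0.44, adjusted p = 0.0457), day 8 mouse A (-0.49, adjusted p = 0.0604) or day 8 mouse C (-0.44, adjusted p = 0.0279), with adjusted p from 4.57e-04 to 0.0604 over all alternatives. On day 6 the adjusted p was 0.0674 without mouse B, 0.0769 without mouse C and 0.30 with all 24 mice in one fit, over a range from 4.67e-04 to 0.30.

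The other IP3 receptors are far less abundant. *Itpr2*, which in the brain is best known from astrocytes, had 71.8, 68.3, 67.0 and 72.5 CPM in controls. Day 4 mice had 61.5, 59.5, 62.8 and 63.5 CPM, and day 6 mice had 60.3, 59.1, 56.9 and 58.6 CPM. Both groups lay below all controls. It was the one member to pass on day 4, with a log2 fold change of -0.18 ± 0.037 (adjusted p = 0.0231), and it fell by 0.26 on the log2 scale on day 6 (SE 0.037, adjusted p = 8.19e-04). The day 4 adjusted p rose above 0.05 with the *Xist* covariate (0.0815), without control B (0.0519), control D (0.0798), day 4 mouse A (0.0535) or day 4 mouse B (0.0824), and to 0.603 with all 24 mice in one fit, over a range from 0.00279 to 0.603. On day 6 only the fit of all 24 mice lost it (adjusted p = 0.256). Of 6 astrocyte markers, 1 was lower on day 4 (1.56% of all genes) and 5 were lower on day 6 (3.81%), when their summed level ran from 4865 to 5239 CPM against 5341 to 5846 in controls. Also lower on day 6 were 3 of 5 microglia markers, with a summed level of 150.4 to 159.8 CPM against 169 to 204, and 2 of 5 endothelial markers, at 164 to 173 CPM against 177 to 201. The part of these cell types in the *Itpr2* result was not tested. On day 8 *Itpr2* had 66.8, 58.7, 64.3 and 60.2 CPM and on day 13 it had 41.3, 59.0, 70.2 and 66.5 CPM, where day 13 mouse A stood lowest. Neither passed (adjusted p = 0.0533 and 0.209), and without day 13 mice A and B the log2 difference on day 13 was -0.037 instead of -0.26.

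*Itpr3*, the IP3 receptor of epithelia and secretory cells, was at 8.70, 7.96, 9.39 and 8.64 CPM in controls. Day 4 mice had 11, 10.7, 12.9 and 9.05 CPM and day 6 mice 6.85, 9.06, 6.4 and 8.06 CPM. Mice of day 8 had 8.93, 10.1, 8.37 and 10.9 CPM, and those of day 13 had 9.87, 5.93, 7.10 and 7.66 CPM. The groups overlapped with the controls at each time point, and none of these differences passed. The log2 difference on day 4 was 0.33 ± 0.10 (adjusted p = 0.0894), and it passed in 3 of 15 alternatives: DESeq2 (0.0236), the *Ttr* covariate (0.0213) and without day 4 mouse D (0.0273), over a range up to 0.429. The counts of *Itpr3*, from 250 to 801 per mouse, were the lowest of the members. In the F test over the 6 groups *Itpr3* passed (adjusted p = 0.0223).

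The 3 ryanodine receptors were all lower on day 13 than in controls. *Ryr1*, the skeletal muscle form, had 41.8, 43.8, 41.5 and 41.6 CPM in controls. It had 54.2, 56.1, 48.5 and 35.1 CPM on day 4, with 3 mice above all controls and mouse D below them, and 44.4, 47.3, 48.1 and 45.8 CPM on day 6, all above the controls. Neither time point passed, with log2 differences of 0.20 ± 0.11 (adjusted p = 0.368) and 0.13 ± 0.041 (adjusted p = 0.0699), the latter past 0.05 in DESeq2 alone of the 15 alternatives (0.0342). On day 8 *Ryr1* had 32.6, 35.4, 28.0 and 39.4 CPM and on day 13 it had 28.0, 23.5, 28.8 and 29.5 CPM. All 8 of these mice were below all controls. The log2 fold change was -0.33 ± 0.091 on day 8 (adjusted p = 0.0356) and -0.64 ± 0.089 on day 13 (adjusted p = 0.00148). On day 13 it kept its call in all 16 alternatives, from -0.68 to -0.54. On day 8 the adjusted p was above 0.05 without any 1 of the 4 controls (0.0718, 0.0943, 0.0764 and 0.0816 without A, B, C and D) without day 8 mouse A (0.103), with all 24 mice in one fit (0.0756) and with the *Ttr* covariate (0.0599), over a range from 0.00746 to 0.103. On day 4, 1 of 15 alternatives passed: leaving out day 4 mouse D gave a log2 fold change of 0.33 (adjusted p = 0.00802). With the *Xist* covariate the log2 difference on day 4 was 0.035 (adjusted p = 0.919, the highest of the alternatives).

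*Ryr2*, the most abundant ryanodine receptor here, changed late and little. Controls had 1293, 1154, 1198 and 1157 CPM. On day 4 it had 1225, 1209, 1173 and 1087 CPM, on day 6 1237, 1157, 1191 and 1178 CPM, and on day 8 1219, 1097, 1038 and 1151 CPM. These 3 groups overlapped with the controls, and the adjusted p was 0.806, 0.837 and 0.295. On day 13 the 4 mice had 1010.4, 968, 1012 and 958 CPM, all below every mouse of the other groups. Its log2 fold change of -0.30 ± 0.065 (adjusted p = 0.00967) stayed under the fold minimum, and the difference passed in all 16 alternatives.

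*Ryr3*, which in the hippocampus is best known from CA1, had 482, 394, 381 and 420.4 CPM in controls. It had 378, 396, 378 and 379 CPM on day 4, 422, 387, 396 and 398 CPM on day 6, and 332, 388, 303 and 352 CPM on day 8, and each of these groups overlapped with the controls. On day 13 the mice had 289, 274, 358 and 279.8 CPM, all below the controls, with mouse C apart from the other 3. The log2 fold change was -0.50 ± 0.11 on day 13 (adjusted p = 0.0102). On day 8 the log2 difference was -0.30 ± 0.091 (adjusted p = 0.0528) and passed in 6 of 16 alternatives: DESeq2 (0.0199), no filter on low counts (0.0333), all 24 mice in one fit (0.0280), the *Xist* covariate (0.0420), a block for the animal-number series (0.0488) and without day 8 mouse B (0.0214), over a range from 0.0199 to 0.14. The day 13 difference passed in all 16 alternatives and lay close to the fold minimum: it was -0.42 without control A, -0.48 without day 13 mouse A, -0.45 without mouse B, -0.47 without mouse D and -0.40 without mice A and B, so that it was no longer called in these fits. Its size was also under 0.5 in DESeq2 (-0.48), with DESeq2 size factors (-0.49), with all 24 mice in one fit (-0.48) and with the level of *Ttr* as a covariate (-0.48).

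**Figure D3:**
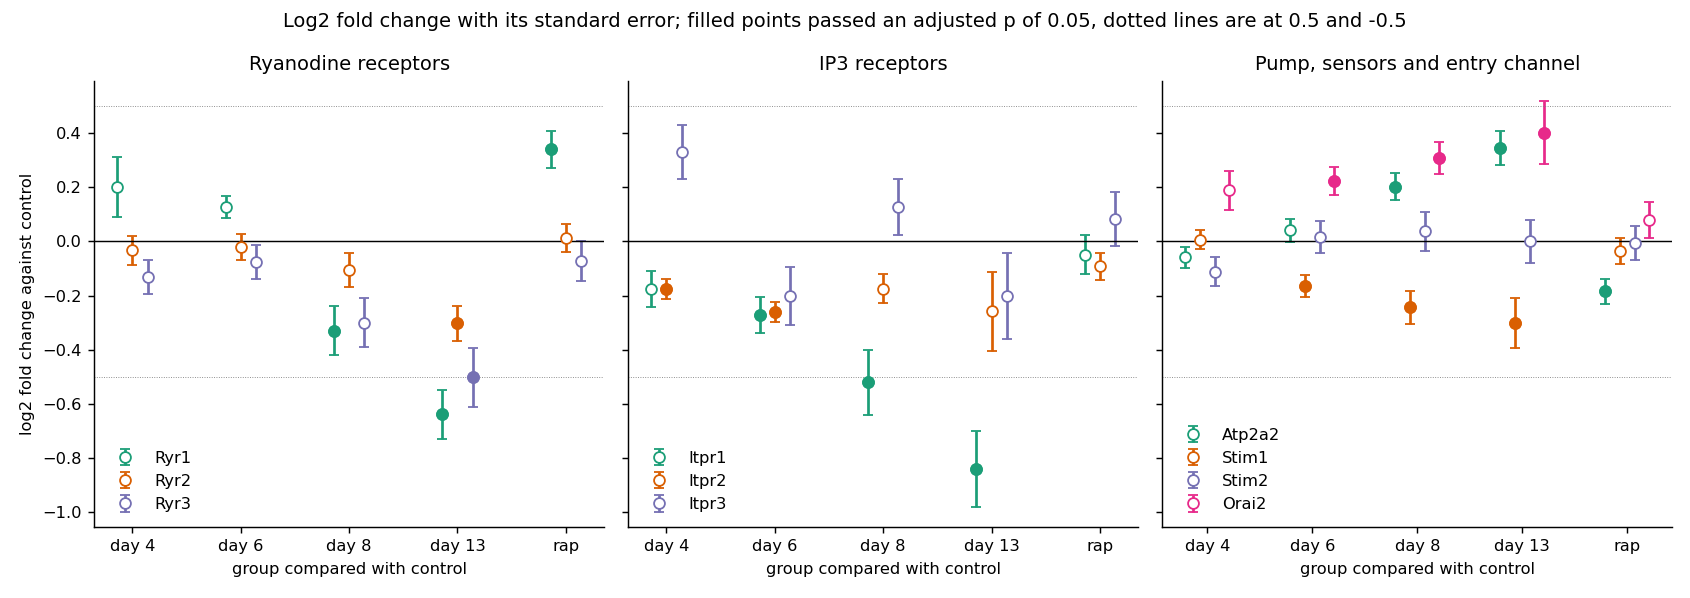
Log2 fold change against control with its standard error for the ryanodine receptors, the IP3 receptors, and the pump, sensors and entry channel. Filled points passed an adjusted p of 0.05 in edgeR and dotted lines mark the fold minimum of 0.5. *Itpr1* reaches -0.84 and *Ryr1* -0.64 on day 13, while *Atp2a2* (0.35) and *Orai2* (0.40) lie above 0.

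*Atp2a2*, the SERCA2 gene whose pump refills the store, rose on day 8 and day 13. Controls had 864, 808, 831 and 844 CPM. Day 4 mice had 815, 811, 790 and 796 CPM and day 6 mice 913, 845, 870 and 839 CPM, and both groups overlapped with the controls (adjusted p = 0.483 and 0.630). On day 8 it had 999, 995, 934 and 962 CPM and on day 13 1084, 1096, 1128 and 1004 CPM. Every day 8 mouse was above every control, and every day 13 mouse was above every day 8 mouse. The log2 fold change was 0.20 ± 0.048 on day 8 (adjusted p = 0.0201) and 0.35 ± 0.062 on day 13 (adjusted p = 0.00433), or 129% of the control mean. The day 13 value passed in all 16 alternatives, from 0.33 to 0.37. The day 8 adjusted p was 0.0670 without control B, 0.0646 without control C, 0.0620 without control D and 0.0715 without day 8 mouse A, over a range from 2.49e-04 to 0.0715.

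Of the 2 store sensors, *Stim1* passed on day 6, 8 and 13 and *Stim2* on no day, and no test compared the 2 genes with each other. *Stim1*, which responds to a deep loss of store calcium, had 64.8, 68.8, 69.9 and 64.9 CPM in controls and 66.0, 68.6, 67.8 and 67.2 CPM on day 4, when the log2 difference was 0.0070 (adjusted p = 0.946). It had 56.7, 61.8, 61.7 and 61.2 CPM on day 6, 57.8, 62.4, 51.6 and 57.1 CPM on day 8, and 54.2, 47.5, 56.4 and 62.8 CPM on day 13. All 12 of these mice were below all controls. On day 6 it was lower by a log2 fold change of -0.16 ± 0.041 (adjusted p = 0.0211), on day 8 of -0.24 ± 0.061 (adjusted p = 0.0247) and on day 13 of -0.30 ± 0.092 (adjusted p = 0.0384). On day 13 the adjusted p was above 0.05 with the *Ttr* covariate (0.0548) and when any control or day 13 mouse A, B or C was left out, between 0.0559 (without B) and 0.100 (without control C), and the log2 fold change was -0.17 without mice A and B (adjusted p = 0.0910). On day 6 it was 0.0692 without control B, 0.0696 without control C, 0.0678 without day 6 mouse A, 0.315 with all 24 mice in one fit and 0.0558 with the *Xist* covariate. On day 8 it was 0.0771, 0.0773 and 0.0508 without control B, C and D, 0.0675 without day 8 mouse A and 0.0509 with the *Ttr* covariate. Over all alternatives it ran from 0.00701 to 0.315 on day 6, from 0.00939 to 0.0773 on day 8 and from 0.00164 to 0.100 on day 13.

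*Stim2*, the sensor that is already active near resting store levels, passed in no comparison. Controls had 146, 129, 119 and 131 CPM. Day 4 mice had 125, 121, 116 and 122 CPM and day 6 mice 146, 124, 136 and 129.8 CPM. Mice of day 8 had 152, 128, 134 and 129 CPM, and those of day 13 had 135, 125, 132 and 140.5 CPM. The groups overlapped throughout. On day 13 the 95% interval of the log2 difference from control ran from -0.15 to 0.16. *Stim2* made up 79.7% ± 1.90 of the summed *Stim* level per kb in controls and 83.0% ± 0.986 on day 13, and these shares overlapped between the groups.

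*Orai2*, an ORAI channel that neurons express, rose from day 6 on. Controls had 158, 158, 139 and 162 CPM. Day 4 mice had 188, 191, 176 and 149 CPM, 3 of them above all controls and mouse D within their range. The log2 difference on day 4 was 0.19 ± 0.073 (adjusted p = 0.178). It passed in 1 of 15 alternatives, without mouse D (0.0227), and was 0.096 with the *Xist* covariate (adjusted p = 0.586). On day 6 *Orai2* had 187, 175, 193 and 172 CPM, on day 8 196, 181, 194 and 201 CPM, and on day 13 179, 181, 219.9 and 247 CPM. All 12 of these mice were above all controls, and on day 13 mice C and D stood above A and B. The log2 fold change was 0.22 ± 0.051 on day 6 (adjusted p = 0.0132), 0.31 ± 0.060 on day 8 (adjusted p = 0.00806) and 0.40 ± 0.12 on day 13 (adjusted p = 0.0302). The day 8 value passed in all 16 alternatives. On day 13 the adjusted p was 0.0611, 0.0630, 0.0896 and 0.0613 without control A, B, C and D, over a range from 6.65e-04 to 0.0896, and the log2 fold change was 0.59 without mice A and B. On day 6 the adjusted p was 0.0555 without mouse C and 0.254 with all 24 mice in one fit, over a range from 5.11e-04 to 0.254.

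Day 13 was also compared with day 8. None of the 10 members passed in edgeR or DESeq2, as with 0.0% of all genes in edgeR, 2 had an unadjusted p under 0.05 (*Ryr1* and *Ryr2*), and 2 did not overlap between groups (*Ryr2* and *Atp2a2*), against 7.04% of all genes. The log2 difference was -0.20 ± 0.072 for *Ryr2* (adjusted p = 0.313) and 0.14 ± 0.065 for *Atp2a2* (adjusted p = 0.376). With all 24 mice in one fit both passed, with adjusted p of 0.0277 and 0.0358, over ranges up to 0.60 and 0.670 in the alternatives. In that fit 2911 of 27110 genes passed, and in DESeq2 310 of 41857 genes did.

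The rapamycin mice were compared with both untreated groups. Under rapamycin *Itpr1* had 1090.4, 1032, 945 and 973 CPM, which overlapped with the controls and was above all day 13 mice. The log2 fold change was 0.78 ± 0.13 against day 13 (adjusted p = 0.00235) and -0.049 ± 0.073 against control (adjusted p = 0.780), with a 95% interval from -0.19 to 0.093. *Ryr2* (1219.7, 1279.9, 1149.8 and 1195 CPM) and *Ryr3* (409, 430.1, 359.9 and 396 CPM) were likewise above all day 13 mice and overlapped with the controls. They were higher than on day 13 by 0.30 ± 0.068 (adjusted p = 0.00881) and 0.42 ± 0.10 (adjusted p = 0.0132) on the log2 scale, and their difference from control had 95% intervals from -0.088 to 0.11 and from -0.22 to 0.075.

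A pair of members differed from control in the rapamycin mice. *Ryr1* had 55.6, 58.0, 45.2 and 54.8 CPM, all above all controls, with a log2 fold change of 0.34 ± 0.068 against control (adjusted p = 0.0170) and 0.97 ± 0.11 against day 13 (adjusted p = 5.31e-04). *Atp2a2* had 748, 757, 741 and 699 CPM, all below all controls, with a log2 fold change of -0.18 ± 0.045 against control (adjusted p = 0.0422) and -0.54 ± 0.068 against day 13 (adjusted p = 7.37e-04). Both therefore lay on the other side of the controls from day 13. Markers of several cell types were lower in the rapamycin mice too, where 2.31% of all genes were lower. Lower were 4 of 5 for microglia (summed level 124 to 142 CPM against 169 to 204 in controls), 2 of 4 for mural cells (125 to 132 against 144 to 165) and 1 of 5 for endothelium (154 to 164 against 177 to 201). So were 2 of 5 for oligodendrocytes (2387 to 3278 against 2740 to 4268), 2 of 6 for astrocytes (5248 to 5359 against 5341 to 5846) and 1 of 4 for CA1 pyramidal cells (389 to 488 against 465 to 572). No marker of any type passed an adjusted p of 0.05 as higher. The part of these cell types in the *Ryr1* and *Atp2a2* results was not tested. The differences from day 13 were called in all 16 alternatives. The difference of *Atp2a2* from control passed in 4 of 15 alternatives and in none that left out 1 mouse, with adjusted p from 5.90e-04 to 0.129. That of *Ryr1* passed in 10 of 15, and its adjusted p was 0.0554 without control C, 0.0561 without control D, 0.0548 without rapamycin mouse A and 0.0592 without mouse B, over a range from 5.50e-04 to 0.172.

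The remaining members did not separate under rapamycin. *Stim1* (67.7, 66.1, 66.2 and 61.8 CPM) and *Orai2* (168, 179, 149 and 157 CPM) overlapped with the controls and with the day 13 mice. Their log2 differences from day 13 were 0.25 ± 0.096 (adjusted p = 0.0689) and -0.33 ± 0.12 (adjusted p = 0.0560). Leaving out day 13 mouse D gave 0.32 for *Stim1* (adjusted p = 0.0231), and leaving out day 13 mouse A or B gave -0.40 for *Orai2* (adjusted p = 0.0308 and 0.0272). Of 16 alternatives, 3 had *Stim1* and 7 had *Orai2* past 0.05, DESeq2 among the latter (0.0355). The adjusted p ranged from 0.00431 to 0.233 for *Stim1* and from 0.00214 to 0.145 for *Orai2* over the alternatives. *Itpr2* (69.9, 66.1, 65.2 and 61.1 CPM), *Itpr3* (9.06, 8.20, 10.7 and 8.79 CPM) and *Stim2* (131, 138, 119 and 133 CPM) passed in neither comparison. The median of the 10 members was 0.26 against day 13 and -0.020 against control, beside 0.023 and 0.0058 over all genes.

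Ratios within a mouse, picked after the values were seen and given without a test, set uptake beside release and the entry channel beside a store sensor. Per kb of exon, *Atp2a2* stood at 2.42 times *Itpr1* in controls (geometric mean of 4 mice), with mice from 2.14 to 2.64. Day 4 and day 6 mice had ratios of 2.62 and 2.99, day 8 and day 13 mice 4.03 and 5.56, and rapamycin mice 2.20. From day 6 on no untreated *Tsc1-Cre+* mouse overlapped with the controls, and the day 13 mice ran from 4.70 to 7.13. *Atp2a2* over *Ryr2* was 3.30 in controls and 5.17 on day 13, and at 2.88 under rapamycin the 4 mice lay below all controls. *Orai2* over *Stim1* went from 3.93 in controls to 5.14 on day 6 and 6.37 on day 13, with 5.77 in between on day 8, and rapamycin mice had 4.25.

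**Figure D4:**
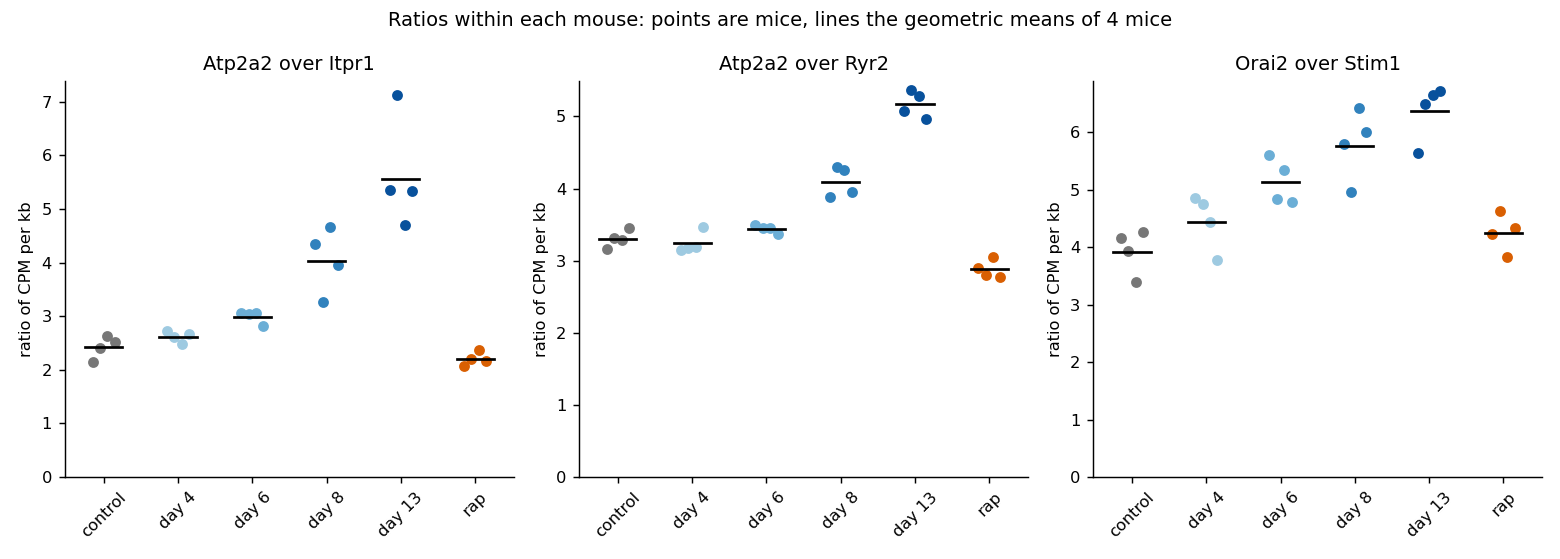
Ratio of levels per kb of exon in each mouse for *Atp2a2* over *Itpr1*, *Atp2a2* over *Ryr2* and *Orai2* over *Stim1*, by group, with geometric means as lines and a y axis from 0. The day 13 mice lie above all controls in each panel, and rapamycin mice overlap with the controls except for *Atp2a2* over *Ryr2*.

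The shares of each receptor in its family, given without a test, were taken from the levels per kb. *Itpr1* made up 90.9% ± 0.754 of the summed IP3 receptor level per kb in controls, 88.2% ± 1.97 on day 8, 86.8% ± 2.33 on day 13 and 91.0% ± 0.513 under rapamycin. *Itpr2* took 7.56% ± 0.588 in controls and 10.9% ± 2.57 on day 13, and *Itpr3* 1.54% ± 0.204 and 2.31% ± 0.492. Both of these shares overlapped between the groups, and the mean CPM of *Itpr2* and *Itpr3* on day 13 was 84.8% and 88.1% of that of the controls. All day 13 mice had a lower *Itpr1* share (84.5% to 89.6%) than all controls (90.3% to 91.9%). In the ryanodine receptors *Ryr2* took 63.5% ± 1.47 in controls and 66.8% ± 2.24 on day 13, and these ranges overlapped.

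The partners of these channels were counted over 83 further genes of store calcium handling in 9 lists. On day 13 edgeR tested 80 of them, and 16 were higher and 8 lower at an adjusted p of 0.05, beside 15.6% and 11.3% of all genes. Their median log2 fold change was -0.0066. Release channel partners had 4 higher and 2 lower of 18, proteins of the store lumen 3 higher and 1 lower of 10, IP3 breakdown 3 higher and 1 lower of 6, IP3 production 1 higher and 2 lower of 15, and partners of store-operated entry 2 higher and 1 lower of 6. Mitochondrial calcium uptake had 2 higher of 7, endolysosomal release 1 higher of 4, extrusion through the plasma membrane 1 lower of 9, and other SERCA pumps and regulators 0 of the 5 tested, where *Pln*, the pump inhibitor phospholamban, was at -0.45 ± 0.15 (adjusted p = 0.0510). On day 4, 6 and 8 the whole list, again with 80 tested, had 4, 7 and 9 genes higher and 4, 3 and 5 lower. Of all genes 4.16%, 10.1% and 13.3% passed on these days in either direction.

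The partners called on day 13 without overlap between the groups belonged to several of these lists. *Itpkc*, which phosphorylates IP3, rose from 5.76 ± 0.628 CPM in controls to 15.8 ± 7.01 on day 13 (log2 fold change 1.43 ± 0.28, adjusted p = 0.00680), with mice from 8.45 to 22.3. *Inpp5a*, an IP3 phosphatase, rose from 30.7 ± 2.20 to 48.4 ± 11.6 CPM (0.63 ± 0.15, adjusted p = 0.0126). *Homer3*, a scaffold that ties IP3 receptors to metabotropic glutamate receptors, was already called on day 8 (0.67 ± 0.11, adjusted p = 0.00347) and went from 25.9 ± 2.35 in controls to 49.6 ± 4.22 CPM on day 13 (0.92 ± 0.093, adjusted p = 4.83e-04). *Irag1*, a protein that binds and restrains IP3 receptors, fell from 4.4 ± 0.917 to 2.10 ± 0.521 CPM (-1.10 ± 0.23, adjusted p = 0.00888).

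A relative of the entry channel rose as well. *Orai1* went from 3.85 ± 0.458 CPM in controls to 6.25 ± 1.43 on day 13 (log2 fold change 0.68 ± 0.17, adjusted p = 0.0177), and *Cracr2a*, a calcium sensor that binds ORAI and STIM, fell from 4.46 ± 0.532 to 2.45 ± 0.539 CPM (-0.89 ± 0.18, adjusted p = 0.00663). In the store lumen, *Calu* (calumenin) rose from 67.9 ± 3.76 to 109 ± 19.1 CPM (0.66 ± 0.11, adjusted p = 0.00279), while *Casq1*, the calsequestrin of skeletal muscle, fell from 1.57 ± 0.211 to 0.891 ± 0.154 CPM (-0.84 ± 0.19, adjusted p = 0.0124). *Casq1* was also lower on day 8 (-0.96 ± 0.28, adjusted p = 0.0474), as was *Plcd4*, a phospholipase C (-0.55 ± 0.077, adjusted p = 0.00145), while *Mcoln1*, a lysosomal calcium channel, was higher (0.51 ± 0.090, adjusted p = 0.00497). On day 4 the one partner called was *Trdn* (triadin, -1.24 ± 0.31, adjusted p = 0.0454), at under 1 CPM in each of these mice.

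Under rapamycin, 6 of the 80 tested partners were higher and 19 lower than on day 13, where 13.1% and 17.7% of all genes were. The called and separated genes with the largest differences were *Itpkc* (-1.34 ± 0.28, adjusted p = 0.00628), *Casq1* (1.26 ± 0.22, adjusted p = 0.00302), *Hspa5* (the chaperone BiP, -0.87 ± 0.15, adjusted p = 0.00302), *Homer3* (-0.81 ± 0.11, adjusted p = 0.00116), *Calu* (-0.73 ± 0.11, adjusted p = 0.00133), *Orai1* (-0.73 ± 0.19, adjusted p = 0.0187), *Fkbp1a* (FKBP12, -0.73 ± 0.10, adjusted p = 0.00125) and *Canx* (calnexin, -0.71 ± 0.066, adjusted p = 2.42e-04). FKBP12 is the protein through which rapamycin binds mTOR, and it also sits on ryanodine receptors. Against control, 1 of the 80 tested partners was higher and 3 were lower under rapamycin, where 1.26% and 2.31% of all genes were. None of these 4 passed the fold minimum. These comparisons share the day 13 and control mice with those of the members.

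**Figure D5:**
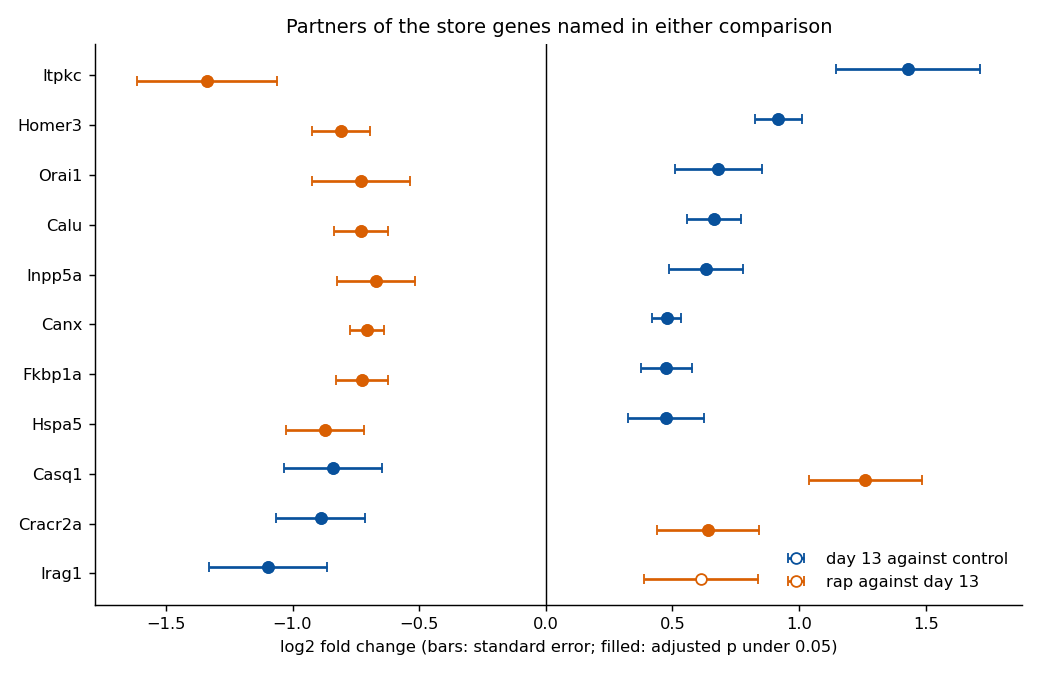
Log2 fold change with its standard error for the partner genes named in either comparison, on day 13 against control and under rapamycin against day 13, where filled points passed an adjusted p of 0.05 in edgeR. *Itpkc* (1.43 and -1.34) has the largest differences and *Irag1*, *Cracr2a* and *Casq1* are the 3 that were lower on day 13.

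The cell type markers measured beside these results moved in part. On day 13, 3 of 4 markers of CA2 and CA3 pyramidal cells were higher (15.6% of all genes). Their summed level was 227 to 298 CPM against 160.4 to 190.2 in controls. Of 4 dentate granule cell markers 1 was lower (11.3% of all genes), with a summed level of 292 to 488 CPM against 497 to 585. Also higher were 1 of 4 excitatory neuron markers and 1 of 5 endothelial markers. Of 6 astrocyte markers 1 was higher and 1 lower, and no marker of the remaining types passed. The summed levels of 4 excitatory neuron markers (2492 to 3581 against 2304 to 3079 CPM) and of 4 CA1 markers (396 to 511 against 465 to 572 CPM) overlapped. Their part in the lower *Itpr1* and *Ryr* levels was not tested. Choroid plexus content varied within groups, and with the level of its marker *Ttr* as a covariate 6 of the 7 members that had passed on day 13 still did in edgeR. *Itpr1* was at -0.83 (adjusted p = 0.00522) and *Ryr1* at -0.64 (adjusted p = 0.00391), while *Stim1*, at -0.31, did not pass (adjusted p = 0.0548).

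The genes most like *Itpr1*, *Ryr1* and *Ryr3* over the 24 mice were found among 13908 protein-coding genes, by the root mean square difference in log2 CPM relative to the control mean. Nearest to *Itpr1* were *Mtus2* (0.11), *Mturn* (0.11) and *Plekhh2* (0.13), with log2 fold changes on day 13 of -0.93, -0.75 and -0.79. Nearest to *Ryr3* were *Exd2* (0.098), *Lsamp* (0.10) and *Dok6* (0.10), and to *Ryr1* they were *Cblb* (0.15), *Pip5k1b* (0.16) and *Il16* (0.16). All points share the libraries and their scaling, and the distances are given as a description.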

How the data were processed

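RNA-seq counts of 24 hippocampi were analysed, with groups of 4 mice taken from the sample titles. Per the labels and the study's methods, rRNA-depleted stranded libraries were read as paired ends of 76 nucleotides, trimmed with cutadapt 1.16.5, aligned with STAR 2.7.2b to mm10 (GRCm38) and counted per GENCODE M24 gene with featureCounts 1.6.4. The authors deposited these counts without normalization, 1 file per mouse. The strand setting and the handling of reads that map to several places are not given in the sources used here.

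Gene names and positions were taken from GENCODE M21, in which 55144 of the 55385 identifiers were found. CPM used TMM-scaled library sizes. Each comparison was fitted on its 8 mice with edgeR 4.0.16 in R 4.3.3 (filterByExpr, TMM, glmQLFit, glmQLFTest, Benjamini-Hochberg over all genes tested). A gene passed at an adjusted p under 0.05 and was called at an absolute log2 fold change over 0.5 as well. The SE was obtained from the fold change and its F value, and the 95% interval from the SE. The fits were tested on simulated data. No 2 libraries of the same group agreed within sampling noise (all pairs within groups, lowest chi-square per degree of freedom 5.43). Total counts ran from 28208561 to 126435936 per mouse, and the precision also depends on the spread between mice.

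Alternatives were DESeq2 1.42.0, its size factors, no filter on low counts, all 24 mice in one fit, a block for the replicate letter, on day 8 a block for the animal-number series, *Ttr* or *Xist* levels as a covariate, no fold minimum and each mouse left out in turn. Leaving out day 13 mice A and B was added after seeing the data. The named genes were all 10 members, *Tsc1*, for each comparison up to 8 partner genes that were called and did not overlap, and the 3 nearest protein-coding genes (mean CPM of at least 1) of each member called on day 13. The members and lists were chosen with earlier results of these data known.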

Additional observations from a re-analysis of the deposited data

Results flagged for a closer look

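A closer look is due at 6 values. In 3 of the 60 groups of 4 mice checked, 1 mouse lay far from the other 3 by Dixon's test at its 95% critical value, which chance gives in about 1 of 20 groups. *Ryr1* in control B was at 43.8 CPM, with the nearest control at 41.8. *Ryr3* in day 4 mouse B was at 396.3 CPM, with the nearest at 378.9. *Stim1* in day 6 mouse A was at 56.7 CPM, with the nearest at 61.2. The other 3 are differences between rapamycin and untreated mice of day 13 that were tested directly by edgeR: *Ryr1* with a log2 fold change of 0.97, *Itpr1* with 0.78 and *Atp2a2* with -0.54. For *Ryr1* and *Atp2a2* the 4 rapamycin mice lay on one side of all controls and the 4 day 13 mice on the other.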

How the results depend on the processing

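Of 1090 alternative values of single members, 965 kept direction and side of the adjusted p threshold. A further 66 fell short of it, 25 passed only in the alternative and 34 changed sign. These values include those of differences that had not passed. The fold minimum played no part in these counts. A call lost through it alone, as for *Itpr1* on day 8 without control A, was therefore counted as kept. The *Itpr1* and *Ryr1* calls on day 13, and those of *Itpr1*, *Ryr1* and *Atp2a2* between rapamycin and day 13, held in every alternative. Without the fold minimum the members called were 1, 4, 5 and 7 on day 4, 6, 8 and 13, 2 for rapamycin against control and 5 against day 13. Leaving out 1 mouse gave 0 to 1 called members on day 8.

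Members past the adjusted p on day 4 (1) were 2 with DESeq2 and with the *Ttr* covariate, 0 with all 24 mice in one fit, and 0 to 4 with 1 mouse left out (0 without control B or D or day 4 mouse A or B, 4 without day 4 mouse D). With the *Xist* covariate *Itpr1* passed on day 4 and *Itpr2* did not. On day 6 (4) they were 0 with all 24 mice and 2 to 4 with 1 mouse left out (2 without day 6 mouse C). DESeq2 added *Ryr1* on day 6 (adjusted p = 0.0342), and the *Xist* covariate lost *Stim1* (0.0558). On day 8 (5) they were 3 with the *Ttr* covariate and 1 to 6 with 1 mouse left out (1 without day 8 mouse A, 2 without control B, C or D). DESeq2, no filter on low counts, the *Xist* covariate and the block for the animal-number series each added *Ryr3* on day 8. All 24 mice in one fit added *Ryr3* and lost *Ryr1*. On day 13 (7) they were 6 with the *Ttr* covariate and without mice A and B, and 5 to 7 with 1 mouse left out (5 without any 1 control). For rapamycin against control (2) they were 1 with all 24 mice and with the *Ttr* or *Xist* covariate, and 0 to 1 with 1 mouse left out (0 without control C or D or rapamycin mouse A or B). For rapamycin against day 13 no alternative lost a member, and all 24 mice in one fit added *Stim1* (adjusted p = 0.00431) and *Orai2* (0.00402). For day 13 against day 8 (0) they were 2 with all 24 mice, a fit in which 2911 of 27110 genes passed.

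The replicate letter did not pair the mice: same-lettered mice of 2 groups correlated between -0.24 and 0.12. As a replicate block it gave 3 members past the adjusted p on day 8, 6 on day 13 and 1 for rapamycin against control. The values lost were *Stim1* (adjusted p = 0.0508) and *Atp2a2* (0.0523) on day 8, *Stim1* on day 13 (0.0636) and *Atp2a2* under rapamycin (0.0679).

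Signs changed only for differences that had not passed. For *Stim2* on day 13 the log2 difference was -0.0083 with no filter and -0.0064 with the *Xist* covariate. Without day 13 mice A and B it was -0.058 for *Itpr2* between rapamycin and day 13, and 0.13, 0.060 and 0.0044 for *Itpr2*, *Stim1* and *Stim2* between day 13 and day 8. With 1 mouse left out, values ran from -0.055 to 0.0039 for *Ryr2* and -0.011 to 0.030 for *Stim1* on day 4, from -0.040 to 0.016 for *Ryr2* and -0.026 to 0.074 for *Stim2* on day 6, and for *Stim2* from -0.017 to 0.095 on day 8 and -0.044 to 0.061 on day 13. For rapamycin against control they ran from -0.018 to 0.043 for *Ryr2*, -0.094 to 0.022 for *Itpr1*, -0.00088 to 0.13 for *Itpr3* and -0.049 to 0.042 for *Stim2*, and against day 13 from -0.060 to 0.032 for *Stim2*. For day 13 against day 8 they ran from -0.18 to 0.048 for *Itpr2*, -0.14 to 0.014 for *Stim1*, -0.076 to 0.014 for *Stim2* and -0.016 to 0.16 for *Orai2*. The cause of these changes was not tested. The spread between mice, the shallowest library (a rapamycin mouse) and the low counts of *Itpr3* limit what small differences could be seen.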

Other observations

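The members differ in gene length, and length went along with the direction of change over the tested protein-coding genes with a mean CPM of at least 1. On day 13 the 2250 genes that span over 100 kb had a median log2 fold change of -0.061, with 13.0% higher and 17.2% lower at an adjusted p of 0.05, against 0.11, 27.0% and 8.08% for the 11653 shorter genes. *Ryr1* (122 kb), *Ryr2* (554 kb), *Ryr3* (586 kb), *Itpr1* (338 kb) and *Stim1* (170 kb), which were lower, span over 100 kb, as do *Itpr2* (394 kb) and *Stim2* (123 kb), which did not pass. *Atp2a2* (48.7 kb) and *Orai2* (23.3 kb), which were higher, are shorter, as is *Itpr3* (64.9 kb). Between rapamycin and control the medians of both length classes were -0.010. The part of gene length in the members' results was not tested.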
